A study of Saccharomyces cerevisiae with 4 samples.

Results

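The 39 genes described here encode, in the nucleus of the budding yeast Saccharomyces cerevisiae, subunits of the mitochondrial respiratory chain and of ATP synthase. They were picked by gene name from the deposited table, and all 39 names were found among its 7130 rows. The set holds both faces of NADH oxidation with 2 genes, complex II with 4, complex III with 9, cytochrome c with 2, complex IV with 9 and ATP synthase with 13. Asr1-RING cells, which carry a mutation in the RING of the ubiquitin ligase Asr1, were sequenced in 2 libraries, and so were wild type (WT) cells. All cells were in log phase in an enriched medium, and their total RNA was depleted of ribosomal RNA. The labels give no strain, no composition of the medium and no nature of the mutation, and do not say whether replicates were separate cultures. P-values therefore reflect the spread among 4 libraries, and that spread may be technical alone.

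In this yeast, electrons from NADH enter the inner mitochondrial membrane through single-protein dehydrogenases, since it has no proton-pumping complex I. Complex II, which is succinate dehydrogenase, feeds the same quinone pool. Complex III passes the electrons to cytochrome c, complex IV passes them to oxygen, and ATP synthase uses the proton gradient so formed. Several subunits of complexes III, IV and ATP synthase are encoded in mitochondrial DNA, so these enzymes are assembled from products of both genomes. Budding yeast growing fast on glucose is known to ferment and to repress many respiratory genes, and the activator complex Hap2/3/4/5 is known to raise them when respiration is used.

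Levels are in FPKM, which counts fragments per kilobase of a transcript and per 1000000 fragments mapped. Steps among the low values gave rough depths of 44.35 and 46.15 times 1000000 fragments for Asr1-RING replicates 1 and 2 and 48.75 and 42.1 for WT replicates 1 and 2. At these depths 80% to 81.5% of the 21 to 32 low rows used per library came out whole within 0.1 of a fragment, after 208 bp was taken off each row's length. Pearson's r of log2(FPKM + 1) across 6892 rows, which are not independent replicates, was 0.991 between replicates of either group and 0.976 to 0.984 for libraries of different groups. ASR1 itself (YPR093C) had 4.99 and 5.39 FPKM in the Asr1-RING libraries, against 7.05 and 6.34 FPKM in the WT libraries (log2 difference -0.31, SE 0.115, limma adjusted p = 0.157). Levels of a gene do not show a mutation inside it, so they are no check on the labels.

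None of the 39 genes passed the test between Asr1-RING and WT. The test was limma on log2(FPKM + 1), fitted on all 6892 rows whose mean reached 1 FPKM, with a call at an adjusted p under 0.05. The filter kept all 39 genes. It called 0 of them higher and 0 lower in Asr1-RING, and their adjusted p-values ran from 0.105 to 0.997. Among the 6517 open reading frame (ORF) rows tested, 1.95% were called higher and 0.921% lower, and over all rows 1.89% and 4.95%. At the ORF shares 0.76 of 39 genes would be called higher and 0.359 lower, so a count of 0 is close to the background.

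At an unadjusted p under 0.05, 7 genes were above WT and 2 below it, 23.1% of the set together. Over ORF rows 15.4% were above and 7.64% below at that level, 23.0% together. Both mutant libraries lay above both WT libraries in 18 of the 39 genes (46.2%) and below both in 8 (20.5%). The shares over ORF rows were 34.8% and 23.7%. The median log2 difference of the 39 genes was 0.10, with 27 above 0, beside a median of 0.03 and 55.5% above 0 over ORF rows. With libraries centred on a common median the set's median was 0.02 and 21 of the 39 were above 0.

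In bulk RNA, fewer cells expressing a gene and less of its RNA per cell cannot be told apart. The intervals show the size of difference that the spread among the 4 libraries allows, for the FPKM as deposited. For 39 of 39 genes the 95% interval of the log2 difference lay within a 2-fold change either way, and for 28 within a 1.5-fold change. The lowest bound of any interval was -0.64 and the highest was 0.77. These are intervals for single genes on the log2(FPKM + 1) scale, which understates the change of low rows. They do not cover the choice of normalization. With quantile normalization the log2 differences of COX9, ATP2 and ATP18 were 0.59, 0.52 and 0.63, above the intervals of these genes. Ratios of mean FPKM, Asr1-RING over WT, ran from 0.77 for QCR6 to 1.39 for NDI1.

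**Figure D1:**
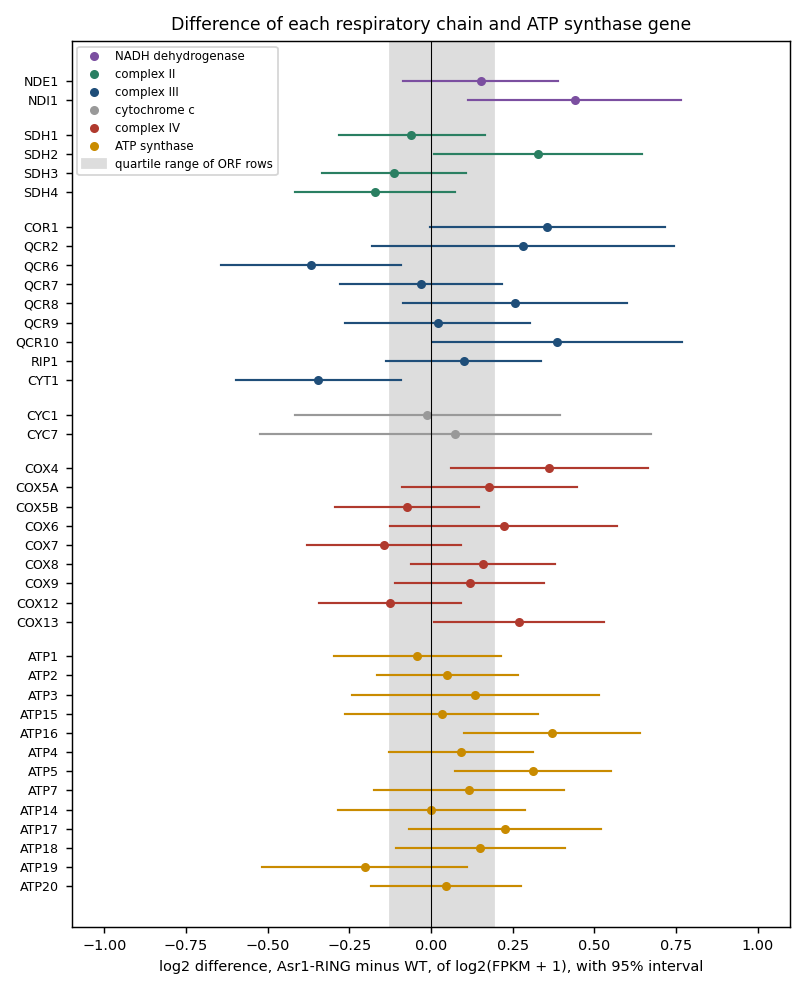
Log2 difference of log2(FPKM + 1), Asr1-RING minus WT, for each of the 39 genes (point) with limma's 95% interval (line), coloured by complex, over the quartile range of ORF rows (grey, -0.125 to 0.193). All intervals lie between -0.64 and 0.77. Complexes II, III and IV, cytochrome c and ATP synthase each hold genes on both sides of 0.

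Both NADH dehydrogenase genes had mutant libraries above both WT libraries, as had 34.8% of ORF rows, without passing the test. NDI1 (YML120C, chromosome XIII, 28266 to 29807, coordinates in sacCer2), which oxidises NADH of the mitochondrial matrix, had 15.7 and 19.1 FPKM in Asr1-RING, against 11.7 and 13.3 FPKM in WT. The groups did not overlap, and the log2 difference of 0.44 (SE 0.132, 95% interval 0.11 to 0.77, adjusted p = 0.109) was the furthest from 0 of the 39 genes. NDE1 (YMR145C), which oxidises cytosolic NADH from the outer face of the inner membrane, had 200.2 and 219.0 FPKM in Asr1-RING, against 184.5 and 192.4 FPKM in WT (log2 difference 0.15, SE 0.096, adjusted p = 0.359). NDE1 stood far above NDI1 in every library. The ratio of NDE1 to NDI1 was 12.8 and 11.5 in Asr1-RING and 15.7 and 14.4 in WT. NDE2, the paralog of NDE1, was low, at 5.0 and 4.81 FPKM in Asr1-RING and 6.59 and 6.07 FPKM in WT (log2 difference -0.31, adjusted p = 0.149).

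Complex II was the only complex of the 4 compared whose median log2 difference was below 0, at -0.09. SDH2 (YLL041C), the iron-sulfur subunit, had 48.6 and 57.0 FPKM in Asr1-RING, against 38.5 and 45.2 FPKM in WT (log2 difference 0.33, SE 0.129, 95% interval 0.01 to 0.65, adjusted p = 0.180). The other 3 subunits lay on the opposite side. SDH4 (YDR178W), a membrane anchor, had 87.2 and 97.0 FPKM in Asr1-RING, against 105.4 and 102.0 FPKM in WT (log2 difference -0.17, SE 0.098, adjusted p = 0.322). SDH1, the flavoprotein that oxidises succinate, and SDH3, the other anchor, had log2 differences of -0.06 and -0.11. In all 4 genes the Asr1-RING libraries lay on 1 side of both WT libraries, above them for SDH2 and below them for the rest. Over ORF rows both mutant libraries lay above both WT libraries in 34.8% and below both in 23.7%.

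Complex III had the widest range of log2 differences of the 4 complexes, -0.37 to 0.39. CYT1 (YOR065W), cytochrome c1, had 53.9 and 53.6 FPKM in Asr1-RING, against 73.1 and 64.2 FPKM in WT (log2 difference -0.34, SE 0.103, 95% interval -0.60 to -0.09, adjusted p = 0.108). QCR6 (YFR033C), the acidic accessory subunit, had 41.1 and 37.0 FPKM in Asr1-RING, against 54.0 and 47.4 FPKM in WT (log2 difference -0.37, SE 0.112, adjusted p = 0.111). These were the 2 genes of the set below WT at an unadjusted p under 0.05, and in both the groups did not overlap.

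On the other side, QCR10 (YHR001W-A), a small accessory subunit, had 183.2 and 230.3 FPKM in Asr1-RING, against 142.3 and 172.9 FPKM in WT (log2 difference 0.39, SE 0.154, adjusted p = 0.184). COR1, a core subunit, had 49.4 and 65.0 FPKM in Asr1-RING, against 43.2 and 44.9 FPKM in WT. QCR2, the other core subunit, had 53.1 and 78.3 FPKM in Asr1-RING, against 51.1 and 54.7 FPKM in WT. In both core genes the 2 Asr1-RING libraries were further apart than the 2 WT libraries, and in QCR2 the groups overlapped. RIP1, the Rieske iron-sulfur protein, QCR7, QCR8 and QCR9 had log2 differences of 0.10, -0.03, 0.26 and 0.02. The median of the 9 genes was 0.10, with 4 (44.4%) above both WT libraries, 2 (22.2%) below both and 3 overlapping, shares near the 34.8% and 23.7% of ORF rows.

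Cytochrome c is made from a main gene, CYC1, and from CYC7, whose product is the isoform known from hypoxic cells. CYC1 (YJR048W) had 94.7 and 129.6 FPKM in Asr1-RING, against 106.2 and 117.4 FPKM in WT. The 2 mutant libraries lay on either side of both WT libraries (log2 difference -0.01, SE 0.164, adjusted p = 0.973), and the sign of the difference turned when WT replicate 2 or Asr1-RING replicate 1 was left out, to 0.06 and 0.21. CYC7 (YEL039C) had 3.14 and 3.17 FPKM in Asr1-RING, against 4.05 and 2.09 FPKM in WT, with WT libraries on either side of the mutant ones. At the estimated depths these values stand for about 18.7 and 19.6 fragments in Asr1-RING and 26.5 and 11.8 in WT. The log2 difference of CYC7 was 0.07 (SE 0.241, adjusted p = 0.871), and it was -0.28 without WT replicate 2 and -0.00102 with median centring.

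Complex IV had the highest median log2 difference of the 4 complexes, 0.16. COX4 (YGL187C), a subunit needed for assembly, had 135.7 and 160.1 FPKM in Asr1-RING, against 108.1 and 121.3 FPKM in WT (log2 difference 0.36, SE 0.121, 95% interval 0.06 to 0.66, adjusted p = 0.135). COX13 (YGL191W), an accessory subunit, had 141.4 and 160.2 FPKM in Asr1-RING, against 120.5 and 128.9 FPKM in WT (log2 difference 0.27, SE 0.105, adjusted p = 0.177). Both genes had non-overlapping groups. Of the 9 genes 5 lay above both WT libraries, 3 below both (COX5B, COX7 and COX12) and 1, COX6, overlapped, beside ORF shares of 34.8% above and 23.7% below. The 3 below had log2 differences of -0.07, -0.14 and -0.12, and COX6, COX8 and COX9 had 0.22, 0.16 and 0.12.

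COX5A and COX5B encode alternative forms of subunit V, known from aerobic and hypoxic growth. COX5A (YNL052W) had 180.6 and 209.7 FPKM in Asr1-RING, against 168.3 and 175.3 FPKM in WT (log2 difference 0.18, SE 0.108, 95% interval -0.09 to 0.45, adjusted p = 0.343). COX5B (YIL111W) had 42.3 and 41.0 FPKM in Asr1-RING, against 44.5 and 43.3 FPKM in WT (log2 difference -0.07, SE 0.089, 95% interval -0.29 to 0.15, adjusted p = 0.638). The aerobic form was the more abundant in every library, with a ratio of COX5A to COX5B of 4.27 and 5.11 in Asr1-RING and 3.79 and 4.05 in WT. The ratio of CYC1 to CYC7 was 30.2 and 40.9 in Asr1-RING and 26.2 and 56.3 in WT, so there the WT libraries spanned the mutant ones.

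**Figure D2:**
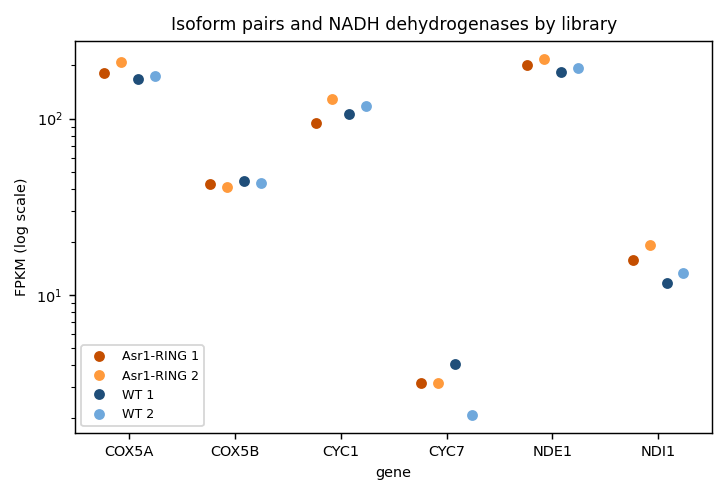
FPKM on a log scale of the isoform pairs COX5A and COX5B, CYC1 and CYC7, and of the NADH dehydrogenases NDE1 and NDI1, with 1 point per library. COX5A lies above COX5B, CYC1 above CYC7 and NDE1 above NDI1 in all 4 libraries, and the 2 WT points of CYC7, at 4.05 and 2.09 FPKM, lie on either side of the mutant points.

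ATP synthase had 11 of 13 genes (84.6%) with a log2 difference above 0 and a median of 0.09, beside 55.5% and 0.03 over ORF rows. Asr1-RING replicate 2 exceeded replicate 1 in 11 of the 13. The median was 0.01 without Asr1-RING replicate 2 and 0.02 with median centring. ATP16 (YDL004W), the delta subunit of the central stalk, had 214.3 and 249.9 FPKM in Asr1-RING, against 175.9 and 181.7 FPKM in WT (log2 difference 0.37, SE 0.109, 95% interval 0.10 to 0.64, adjusted p = 0.105, the smallest of the 39 genes). ATP5 (YDR298C), which joins the peripheral stalk to the catalytic head, had 260.1 and 262.0 FPKM in Asr1-RING, against 199.4 and 221.2 FPKM in WT (log2 difference 0.31, SE 0.097, 95% interval 0.07 to 0.55, adjusted p = 0.115). In both genes the groups did not overlap.

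The alpha and beta subunits of the catalytic head were closer to WT. ATP1, the alpha subunit, had 349.4 and 399.4 FPKM in Asr1-RING, against 382.1 and 387.1 FPKM in WT, although its row overlaps YBL100C. ATP2, the beta subunit, had 771.7 and 769.0 FPKM in Asr1-RING, against 739.8 and 748.2 FPKM in WT (log2 difference 0.05, adjusted p = 0.745). Its 95% interval ran from -0.16 to 0.27, the narrowest in the set. With quantile normalization the log2 difference of ATP2 was 0.52, outside that interval. ATP3 and ATP15, of the central stalk, had log2 differences of 0.14 and 0.03.

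Among the 8 membrane and peripheral stalk genes 7 were above 0 and the median was 0.10, beside 55.5% and 0.03 over ORF rows. ATP17 and ATP18 had log2 differences of 0.23 and 0.15, and ATP4, ATP7, ATP14 and ATP20 had 0.09, 0.12, 0.00 and 0.04. ATP19 was the exception at -0.20, with 219.7 and 244.2 FPKM in Asr1-RING, against 293.3 and 242.4 FPKM in WT. The row of ATP14 overlaps YLR294C, and no source used here gives the handling of strand, so the reads of ATP1, ATP14 and their overlapping rows cannot be told apart. Of the 13 genes 6 lay above both WT libraries, 0 below both and 7 overlapped, beside 34.8% above and 23.7% below over ORF rows.

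Asr1-RING replicate 2 stood above the other libraries in this set. It exceeded Asr1-RING replicate 1 in 32 of 39 genes, or 82.1%, against 48.3% of ORF rows, with a median log2 difference between the 2 replicates of 0.15 in the set and -0.01 over ORF rows. The median deviation of the 39 genes from their 4-library mean was -0.02 and 0.13 in Asr1-RING replicates 1 and 2 and -0.04 and -0.05 in WT replicates 1 and 2. The median absolute log2 difference was 0.15 between group means, 0.15 between single Asr1-RING replicates and 0.08 between single WT replicates, beside 0.16, 0.14 and 0.10 over ORF rows. The geometric mean FPKM of complexes III and IV and of ATP synthase was highest in Asr1-RING replicate 2. In complex IV both Asr1-RING libraries were above both WT libraries. For ATP synthase it was 244 and 274 in Asr1-RING, against 244 and 238 in WT. For complex IV it was 196 and 212 in Asr1-RING, against 184 and 194 in WT, and for complex III 103 and 118 in Asr1-RING, against 105 and 105 in WT. Complex II had 81.9 and 87.9 in Asr1-RING, against 84.1 and 86.0 in WT. There the highest value came through SDH2, since SDH1, SDH3 and SDH4 were below both WT libraries in Asr1-RING replicate 2. The summed FPKM of complex II was 433.5 and 444.6 in Asr1-RING, against 465.0 and 459.5 in WT. For complexes II and III and ATP synthase, Asr1-RING replicate 1 was at or below the WT libraries or between them.

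**Figure D3:**
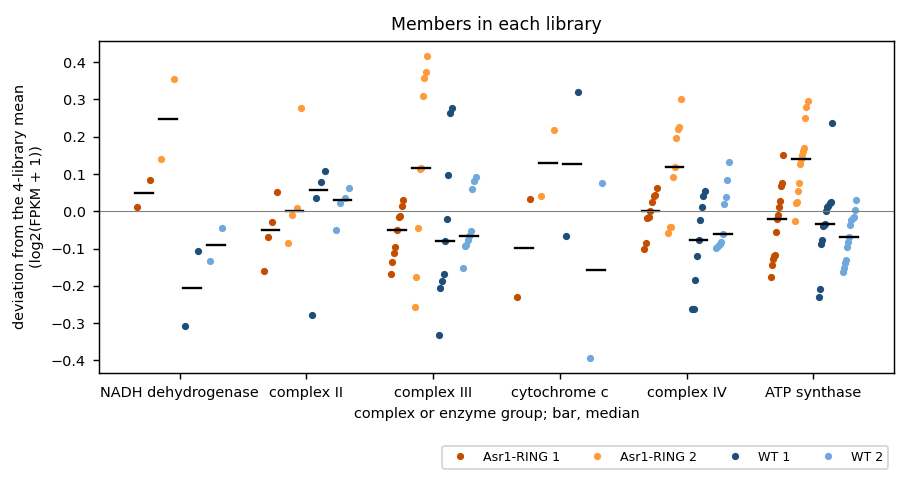
Deviation of each gene from its mean over the 4 libraries, in log2(FPKM + 1), by complex and library, with the median of each library as a bar. Over the 39 genes the medians are -0.02 and 0.13 for Asr1-RING replicates 1 and 2 and -0.04 and -0.05 for the WT replicates.

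The count of calls changed when 1 mutant library was left out. Without Asr1-RING replicate 1 the fit compares the lone replicate 2 with both WT libraries and assumes that it varies like them, and 7 genes were called higher and 1 lower. Those called higher were COR1, QCR2, QCR8 and QCR10 of complex III, COX4, ATP16 and NDI1 (log2 differences 0.44 to 0.57, limma adjusted p = 0.0144 to 0.0357). QCR6 was called lower (log2 difference -0.44, limma adjusted p = 0.0454). In that fit 11.9% of ORF rows were called higher and 4.28% lower. With quantile normalization 3 genes of the set were called higher and 0 lower, beside 4.65% and 1.81% of ORF rows. Without Asr1-RING replicate 2 there were 0 calls in the set, and the medians of complex III and ATP synthase were both 0.01.

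Levels differed widely between subunits of the same complex. Over the 39 genes the mean FPKM of 4 libraries ran from 3.11 for CYC7 to 1360 for ATP15, with a median of 137, and 37 of 39 were above the median ORF row. FPKM is already per length, but 6 genes (ATP15, COX9, ATP18, QCR9, COX7 and ATP19) have rows no longer than the 208 bp taken off in the depth estimate, counting the R64 coding length where the annotation has an intron. They had 249.9 to 1355 FPKM, and their levels depend on the effective length used upstream. Among the remaining genes of each complex, SDH3 stood 6.01-fold above SDH1 in complex II (262 against 43.6 FPKM), QCR8 5.74-fold above QCR6 in complex III (257 against 44.9 FPKM) and COX8 7.47-fold above COX5B in complex IV (320 against 42.8 FPKM). ATP2 stood 9.02-fold above ATP3 in the catalytic part of ATP synthase (757 against 83.9 FPKM), and ATP17 3.31-fold above ATP20 in its other part (324 against 97.8 FPKM). COX8 (237 bp) and QCR8 (285 bp) exceed the length taken off by little, so their levels depend on it too. At the estimated depths COX8 had about 422 and 463 fragments in Asr1-RING, against 465 and 469 for COX5B. In WT COX8 had about 428 and 368, against 538 and 452 for COX5B. These fragment numbers were themselves worked out with the 208 bp taken off, which was estimated on rows of 350 to 3000 bp. They therefore cannot show how far the fold between COX8 and COX5B rests on the length used, which was not tested. Shorter rows tended to have higher FPKM. Spearman's rho of row length and level was -0.495 over the 39 genes and -0.22 over the 33 longer ones, as a description across genes of the same 4 libraries.

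**Figure D4:**
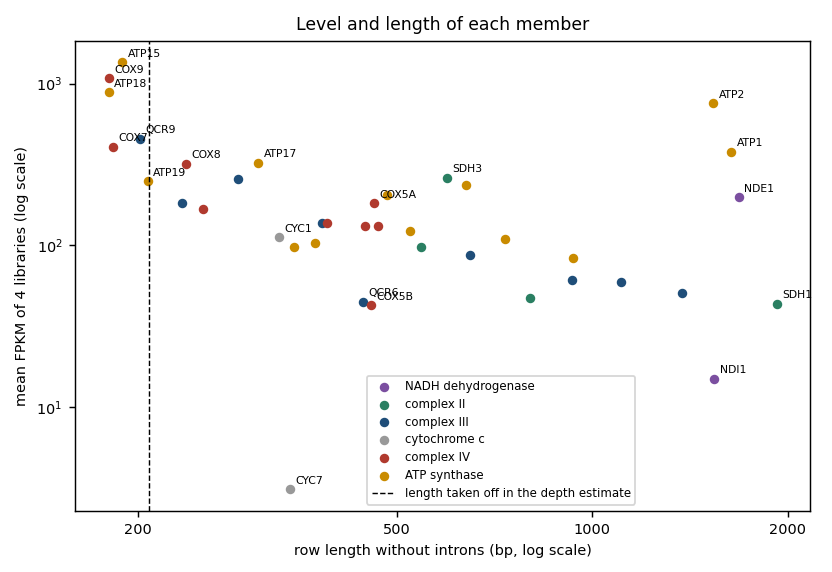
Mean FPKM of 4 libraries against row length without introns, both on log scales, for the 39 genes, coloured by complex, with the 208 bp taken off in the depth estimate as a dashed line. The 6 genes at or left of the line have 249.9 to 1355 FPKM, and ATP2, ATP1 and NDE1 are high among the long rows.

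The mitochondrially encoded partners could not be compared. COX1, COX2, COX3, COB, ATP6, ATP8 and OLI1 were listed at 0 in all 4 libraries, as were all 55 rows of the mitochondrial chromosome. An exact 0 over a whole chromosome can come from how the values were made, so it is not read here as the level of their RNA. The cause was not tested.

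Genes that assemble, regulate or supply these enzymes gave 1 call in 104 genes tested. HAP5 (YOR358W, chromosome XV, 1010159 to 1010887), a DNA-binding subunit of the Hap2/3/4/5 activator of respiratory genes, fell in Asr1-RING, beside 0.921% of ORF rows called lower. It had 7.09 and 5.46 FPKM in Asr1-RING, against 10.9 and 10.4 FPKM in WT (log2 difference -0.68, SE 0.139, 95% interval -1.03 to -0.34, limma adjusted p = 0.0467). The call was kept in 8 of 13 alternative fits that held the gene. It ended with any of 3 single libraries left out (limma adjusted p = 0.324 and 0.214 without WT replicates 1 and 2, 0.0543 without Asr1-RING replicate 2), with no filter on low rows (0.0684) and with ORF rows tested alone (0.0662). HAP4, the activating subunit of the same complex, named after its values were seen, had 22.2 and 36.6 FPKM in Asr1-RING, against 17.8 and 17.3 FPKM in WT (log2 difference 0.67, SE 0.225, adjusted p = 0.135). As in the set itself, Asr1-RING replicate 2 was the highest library. HAP1, HAP2, HAP3 and ROX1 had log2 differences of 0.01, 0.04, 0.06 and 0.14.

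Coenzyme Q carries electrons from the dehydrogenases and complex II to complex III. Of its 11 synthesis genes 0 were called by limma, 7 had an unadjusted p under 0.05, 10 had a log2 difference above 0, 9 had both mutant libraries above both WT libraries, and the median was 0.29 beside 0.03 over ORF rows. The shares over ORF rows were 23.0% with an unadjusted p under 0.05, 55.5% above 0 and 34.8% with both mutant libraries above. COQ9, a lipid-binding protein of this pathway whose row overlaps YLR202C, had 64.3 and 67.3 FPKM in Asr1-RING, against 44.85 and 49.97 FPKM in WT (log2 difference 0.47, adjusted p = 0.0535). It was under the threshold in 4 of 14 alternative fits, and over the 14 its limma adjusted p ran from 0.0269 to 0.43. Of the 8 heme synthesis genes, which supply the cofactor of cytochromes, 0 were called by limma, 3 had an unadjusted p under 0.05, 7 were above 0 and the median was 0.26. HEM13, coproporphyrinogen oxidase, had 139.8 and 143.7 FPKM in Asr1-RING, against 113.0 and 116.5 FPKM in WT (log2 difference 0.30, adjusted p = 0.104).

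The 14 genes listed for the expression of mitochondrial genes, mainly activators of translation, had 0 limma calls and a median of 0.17. An unadjusted p under 0.05 was found for 4 of them (28.6%), beside 23.0% of ORF rows. AEP2, needed to express the mitochondrial ATP synthase subunit gene OLI1, had 12.5 and 11.7 FPKM in Asr1-RING, against 8.79 and 8.12 FPKM in WT (log2 difference 0.47, SE 0.103, adjusted p = 0.0568). It was under the threshold in 3 of 14 alternative fits, and over the 14 its limma adjusted p ran from 0.0294 to 0.321.

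Lists made up mainly of assembly factors, that of ATP synthase also holding regulators, had medians closer to that of ORF rows. Those of complex IV had 0 of 28 calls and a median of 0.05, those of complex III and cytochrome c 0 of 9 and 0.11, those of complex II 0 of 6 and 0.08, and those of ATP synthase 0 of 11 and 0.06. At an unadjusted p under 0.05, where ORF rows had 15.4% above WT and 7.64% below, complex IV factors had 3 genes above and 2 below (CMC2 and COA6, log2 differences -0.37 and -0.38). Complex III factors had 2 above and 0 below, complex II factors 0 and 0, and the ATP synthase list 1 above and 1 below (STF1, log2 difference -0.25). The members with the smallest p were COX10, which acts in heme a synthesis, CYT2, which attaches heme to cytochrome c1, SDH8 and ATP22. Their log2 differences were 0.29, 0.43, 0.18 and 0.36 (adjusted p = 0.128, 0.112, 0.329 and 0.119). Among the 4 ADP/ATP and phosphate carriers limma called 0, the median was 0.03, and 1 gene was under an unadjusted p of 0.05. AAC3, a minor ADP/ATP carrier, had 15.9 and 16.7 FPKM in Asr1-RING, against 12.4 and 12.6 FPKM in WT (log2 difference 0.36, adjusted p = 0.0831). The 7 other dehydrogenases and paralogs had 0 limma calls and a median of -0.06. An unadjusted p under 0.05 was found for 2 of them (28.6%), beside 23.0% of ORF rows. Of these 1 was above WT, DLD1, and 1 below, NDE2 (log2 difference -0.31). DLD1, a lactate dehydrogenase that gives electrons to cytochrome c, had a log2 difference of 0.31 (adjusted p = 0.112).

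**Figure D5:**
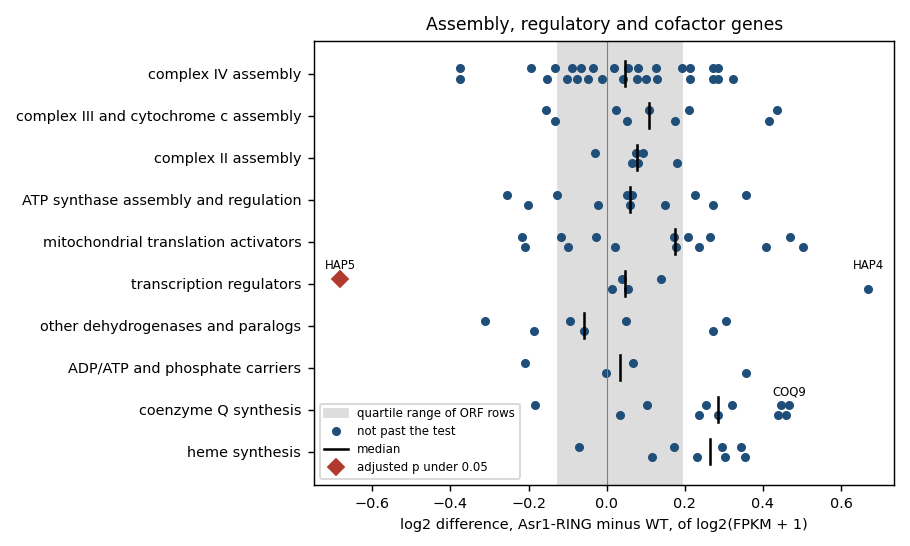
Log2 difference of log2(FPKM + 1), Asr1-RING minus WT, for the genes of 10 lists around the respiratory chain, with each list's median as a bar and the quartile range of ORF rows in grey. HAP5 (red diamond, -0.68) is the 1 gene past an adjusted p of 0.05, and the medians of coenzyme Q and heme synthesis, 0.29 and 0.26, lie right of the grey band.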

How the data were processed

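The authors deposited 1 table with an FPKM value per row and library, and 0 value columns were left untied to a sample. TopHat2 and Cufflinks were used with build sacCer2, per the submitters' processing notes; tool versions, settings, annotation and use of strand are in none of the sources used here. The table counts starts from 0, so 1 was added. After this all 42 mitochondrial rows matched to the R64 annotation had its start and end, against 899 of 6006 nuclear rows. R64 therefore gave names and coding lengths only, and no sequence was read from it.

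Since FPKM are not counts, tests for counts were left out. The comparison of Asr1-RING and WT used limma, with moderation along an intensity trend, on log2(FPKM + 1), which has a pseudocount of 1. Rows had to reach a mean of 1 FPKM. The fit had 2 residual and 3.71 prior degrees of freedom, with Benjamini-Hochberg adjustment over all 6892 rows and a call at 0.05. All adjusted p-values are limma's. Lists are described by counts and medians without a test. Depths are approximate, serve only to show how many fragments low rows hold, and cover counting error only; 3 fragments on 1 kb would be the floor. The members, lists and tests were chosen with earlier results of these data known. Genes named are those of the set, with full values for the 2 smallest p and the largest difference per complex, isoform pairs and the NADH dehydrogenases, and for each further list the called genes or else the smallest p. COR1, QCR2, HAP4, NDE2, ATP1, ATP2, ATP19, CMC2, COA6 and STF1 were named with values after their values were seen. Of 111 listed further genes, 16 were matched through R64 symbols. Python 3.11.15, pandas 2.3.3, numpy 2.4.6, scipy 1.17.1, matplotlib 3.10.9, R 4.3.3 and limma 3.58.1 were used.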

Additional observations from a re-analysis of the deposited data

How the results depend on the processing

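The set had 0 calls in either direction under 12 of 14 alternatives. The exceptions were quantile normalization, with 3 genes higher, and leaving out Asr1-RING replicate 1. The 3 genes were COX9, ATP2 and ATP18, with log2 differences of 0.59, 0.52 and 0.63 under quantile normalization. Leaving out 1 library gave 0 to 7 genes of the set higher and 0 to 1 lower, 16 to 781 rows higher and 197 to 553 lower, beside 130 and 341 with all libraries. Those leave-one-out fits gave medians of 0.04 to 0.17 for the set, -0.10 to -0.06 for complex II, 0.01 to 0.16 for complex III, 0.08 to 0.20 for complex IV and 0.01 to 0.17 for ATP synthase. With median centring the set's median was 0.02 and 70 rows were higher. The medians of complexes II, III and IV were then -0.16, 0.02 and 0.08, and that of ATP synthase was 0.02. With quantile normalization the set's median was 0.18 and 307 rows were higher. The medians of complexes II, III and IV were then -0.05, 0.16 and 0.22, and that of ATP synthase was 0.21. Higher calls made up 27.6% of all calls, 13.5% with median centring and 49.3% with quantile normalization. Rows called higher numbered 63 with no filter, 216 at a mean of at least 10 FPKM, 91 without a trend and 256 with robust moderation, and with ORF rows alone 36 were higher and 23 lower.

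With the replicate number as a block 237 rows were higher and 381 lower, and the set had 0 calls. Deviations of the same-numbered libraries had a correlation of -0.0712 across rows, so no shared shift was seen. That cannot tell whether same-numbered libraries were grown or prepared together, and the sample titles do not say. The sign turned for CYC7 with median centring (-0.00102) and for both cytochrome c genes with single libraries left out, where CYC7 ranged from -0.28 to 0.43 and CYC1 from -0.23 to 0.21. CYC1 was at 0.06 when the second WT library was dropped. Of 361 values of named genes under the alternatives, 338 kept their sign and side of the threshold. The cause of these changes was not tested. With 2 libraries a group, an exact permutation test of a single gene cannot go below p = 0.333.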
